A study of Mus musculus with 2 samples.

Results

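The 47 genes described here encode factors that make ribosomes, together with subunits of RNA polymerase I. They were picked out by gene name. The names taken were those beginning Nop, Nol, Utp or Rrp followed by a number, the Polr1 subunits a to h, Imp3 and Imp4, and the genes Fbl, Ncl, Npm1, Dkc1 and Bop1. The rule found 47 of the 19505 named genes on the array, each with 1 probe set. By known function 44 of them are ribosome biogenesis genes. The other 3 share only the name pattern, namely Nol3, an inhibitor of apoptosis, and Nol4 and Nol4l.

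The study compared mouse innate lymphoid cell (ILC) progenitors with and without the gene Yeats4, whose protein reads acetylated histones and works in the chromatin complexes SRCAP and Tip60. One array held RNA of progenitors labelled as Yeats4 knockout and the other RNA of wild-type littermates. Both populations were sorted as lineage-negative cells with CD127 and α4β7 integrin and intermediate levels of c-Kit and Sca-1. Neither the Cre driver of the deletion, the age of the mice nor the number of mice pooled per array is given in the sources used here. Each genotype has 1 array, so no difference below has a replicate error or a test, and all of them compare these 2 arrays only. Values are log2 expression as the authors deposited them, and every difference was taken by subtracting the wild-type value from that of the array labelled knockout.

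Yeats4 itself read 5.90 on the array labelled knockout and 5.96 on the wild-type array, a difference of -0.06. Where its probes lie relative to the deletion is not known here, so this value does not check the label. Of the 4 measured genes of the sort gate, Kit (0.65) was higher, Il7r (-0.70) was lower, and Itga4 (0.00) and Itgb7 (-0.14) lay between, and all 4 were above background on both arrays. Of the ILC progenitor markers, the 3 furthest from 0 were Id2 (1.23), Il2rb (-1.09) and Nfil3 (-0.93). Markers of other cells moved too. The 10 T cell markers past the level filter averaged 4.38 on the array labelled knockout and 5.95 on the wild-type array. At least 1.5-fold lower were 9 of the 10, and 6 lay under the background level on the array labelled knockout only. The 9 B cell markers averaged 5.89 and 6.79 in the same order, with 6 at least 1.5-fold lower. The 5 eosinophil markers averaged 6.33 and 7.60, with 4 lower, and the 7 macrophage markers 5.50 and 4.63, with 6 higher. The 10 neutrophil and granulocyte progenitor markers averaged 9.37 on the array labelled knockout and 9.26 on the wild-type array. They lay on both sides of 0, with Cebpe (0.74, near background), Ctsg (0.72) and Prtn3 (0.55) higher and Ltf (-0.55) and Camp (-0.41) lower. The 4 erythroid markers averaged 4.77 and 4.93 in the same order. The part of these cells in the results below was not tested. In sorted bulk RNA, fewer cells of a type and less RNA per cell cannot be told apart. RMA also scales the arrays to each other, so a difference in the total RNA of a cell would not be seen.

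Ribosomes are assembled in the nucleolus. RNA polymerase I transcribes one long precursor that holds the 18S, 5.8S and 28S ribosomal RNAs. Small nucleolar particles of the box C/D and H/ACA kinds modify it, and a large assembly, the small subunit processome, folds and cleaves its first part while other factors build the large subunit. Growing and dividing progenitors use this pathway heavily, and MYC is a known activator of its genes.

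The promoters of 4 members are shown because they stand at both ends of the differences described below: Utp20, Nol11 and Nol10 are the 3 members with the highest differences, and Rrp36 has the lowest difference of any member with a promoter entry. The sequences are from RefSeq (GRCm38.p6), which gave a promoter for 36 of the 47 members. They run 5′ to 3′ from 250 bases before the gene start to 50 after it. Capitals mark an E-box bound by MYC and MAX (CACGTG) or the core of ETS factor sites (CGGAAG, or its complement CTTCCG).
Utp20, chr10:88826765-88827064, minus strand: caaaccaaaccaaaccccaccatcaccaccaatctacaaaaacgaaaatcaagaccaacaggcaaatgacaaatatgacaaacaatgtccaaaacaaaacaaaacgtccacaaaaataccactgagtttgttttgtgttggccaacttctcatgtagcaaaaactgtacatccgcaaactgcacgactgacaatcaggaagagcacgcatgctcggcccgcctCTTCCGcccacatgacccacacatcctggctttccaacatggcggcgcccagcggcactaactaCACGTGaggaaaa
Nol11, chr11:107189332-107189631, minus strand: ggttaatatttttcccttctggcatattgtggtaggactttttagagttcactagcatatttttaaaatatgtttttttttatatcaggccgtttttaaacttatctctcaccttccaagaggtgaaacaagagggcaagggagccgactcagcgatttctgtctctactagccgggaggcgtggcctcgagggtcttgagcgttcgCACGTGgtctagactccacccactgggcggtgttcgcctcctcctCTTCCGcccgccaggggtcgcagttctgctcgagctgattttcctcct
Nol10, chr12:17348243-17348542, plus strand: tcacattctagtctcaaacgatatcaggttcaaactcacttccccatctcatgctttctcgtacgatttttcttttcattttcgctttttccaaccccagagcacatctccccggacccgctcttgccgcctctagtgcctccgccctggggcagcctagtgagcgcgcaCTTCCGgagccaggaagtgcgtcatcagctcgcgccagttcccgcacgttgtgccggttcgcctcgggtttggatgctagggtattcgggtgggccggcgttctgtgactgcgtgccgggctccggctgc
Rrp36, chr17:46674257-46674556, minus strand: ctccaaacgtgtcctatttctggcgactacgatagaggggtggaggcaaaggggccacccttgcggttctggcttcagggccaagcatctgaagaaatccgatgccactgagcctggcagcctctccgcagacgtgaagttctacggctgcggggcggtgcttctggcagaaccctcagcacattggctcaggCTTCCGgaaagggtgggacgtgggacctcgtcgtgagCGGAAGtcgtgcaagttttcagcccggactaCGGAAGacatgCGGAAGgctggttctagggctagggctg
Utp20 and Nol11 each hold 1 E-box and 1 ETS core, Nol10 holds 1 ETS core and no E-box, and Rrp36 holds 4 ETS cores and no E-box. RefSeq lists a further promoter of Rrp36 that starts at 46674277 and overlaps the one shown.

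Most of the genes read slightly higher on the array labelled knockout, and none differed 2-fold. Of the 47 members, 45 passed the level filter, which required a mean over both arrays of at least 2.88, the median of the probe sets. The median difference of these 45 was 0.24 (interval 0.17 to 0.37 over genes, which covers the scatter among genes and not among mice). The median over all 10881 genes past the filter was 0.08. Of the 45 members, 36 (80.0%) were above 0, against 58.2% of all genes past the filter. The filter used the mean of the arrays, so it did not select for either direction. The 2 members under it were Nol3, at 3.03 on the array labelled knockout and 2.71 on the wild-type array, and Nol4, at 1.33 and 1.41.

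Differences of this size were common at these levels. Each member was set beside the 500 other genes nearest to it in mean level. The median difference of those neighbours was 0.13 (median over members), and 31 of the 45 members lay above the median of their own neighbours. The difference of a member from that local median was 0.15 (median), while the local spread (scaled median absolute deviation) was 0.35, and 33 members lay within 1 local spread of their neighbours' median. At least 1.5-fold higher were 5 members (11.1%), against 9.16% of all genes past the filter and 9.18% of the genes of like level. At least 1.5-fold lower were 0 members, against 5.16% of all genes and 3.50% of those of like level. The share of members past 1.5-fold higher is thus close to the background, and the shift of the list is a small one spread over many genes. No member was 2-fold higher or lower, against 1.56% of genes higher and 0.781% lower. The higher and lower counts depended on the scaling. They were 3 and 1 after a loess correction on level, and 4 and 1 after either quantile normalization or centring on the median, with Utp23 as the lower gene each time.

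A gene is called near background when both arrays read under 4.80, the higher of the 95th percentiles of the negative control probe sets on the 2 arrays. Of the 45 members, 29 were above this level on both arrays, 10 were near background on both, and 6 (Nol10, Nop14, Nol12, Nol8, Polr1e and Utp15) were under it on the wild-type array only. The 29 had a median difference of 0.24, against 0.13 for the 5212 genes above background on both arrays. Of the 29, 24 (82.8%) were above 0, against 66.6% of those genes, and 2 (6.90%) were at least 1.5-fold higher, against 6.37%.

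**Figure D1:**
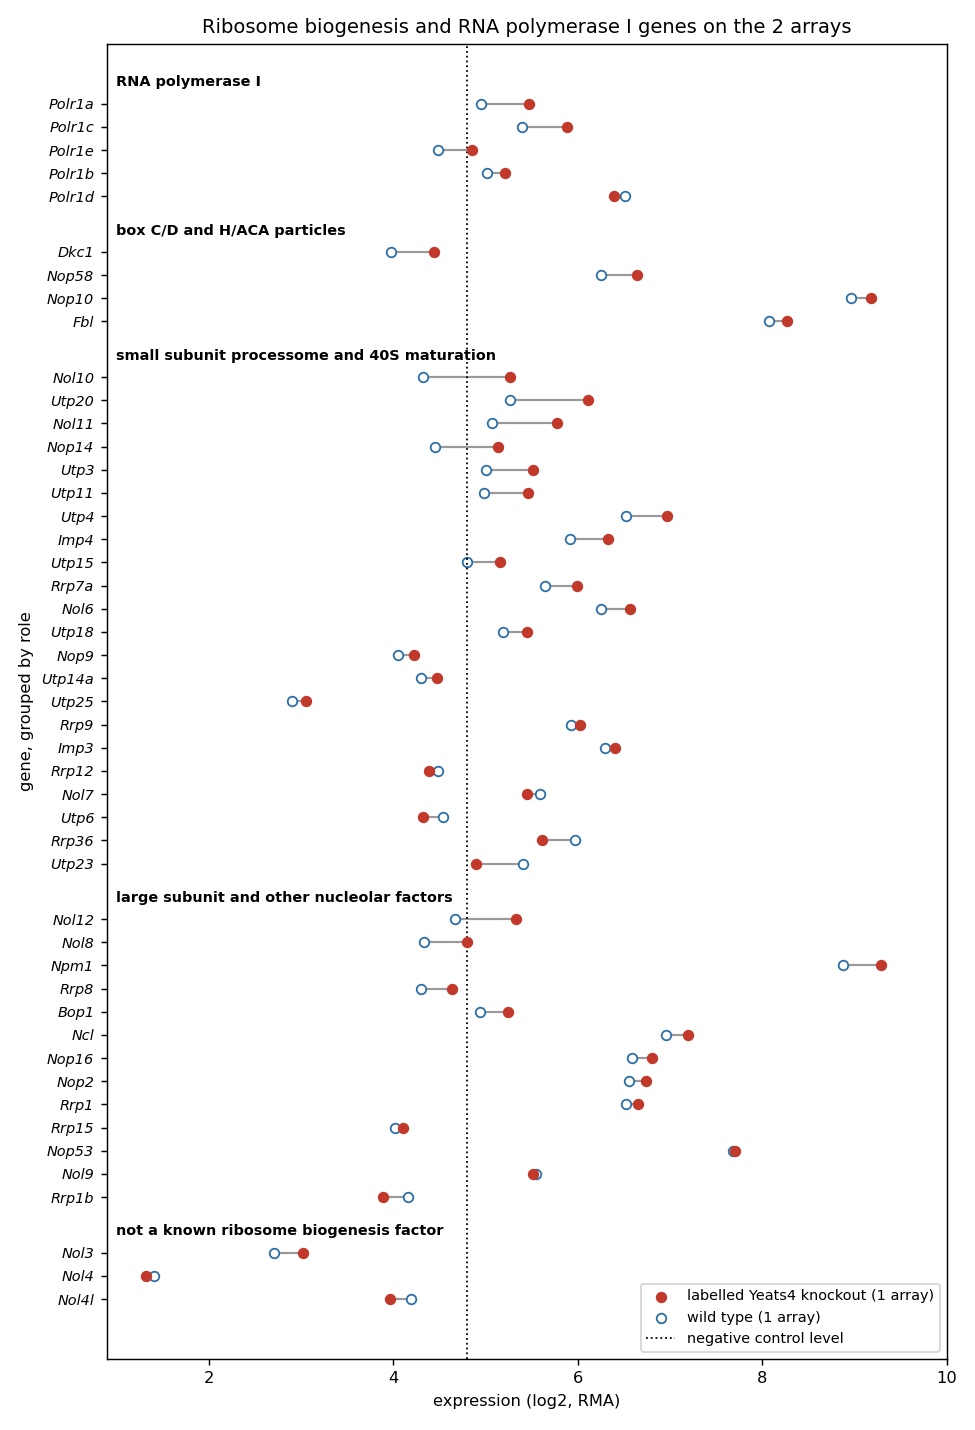
Expression (log2, RMA) of all 47 genes on the array labelled knockout (filled points) and on the wild-type array (open points), grouped by role and ordered by difference. The dotted line is the negative control level of 4.80. Most filled points lie to the right of their open points, and the distances are under 1 log2 unit in every gene.

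**Figure D2:**
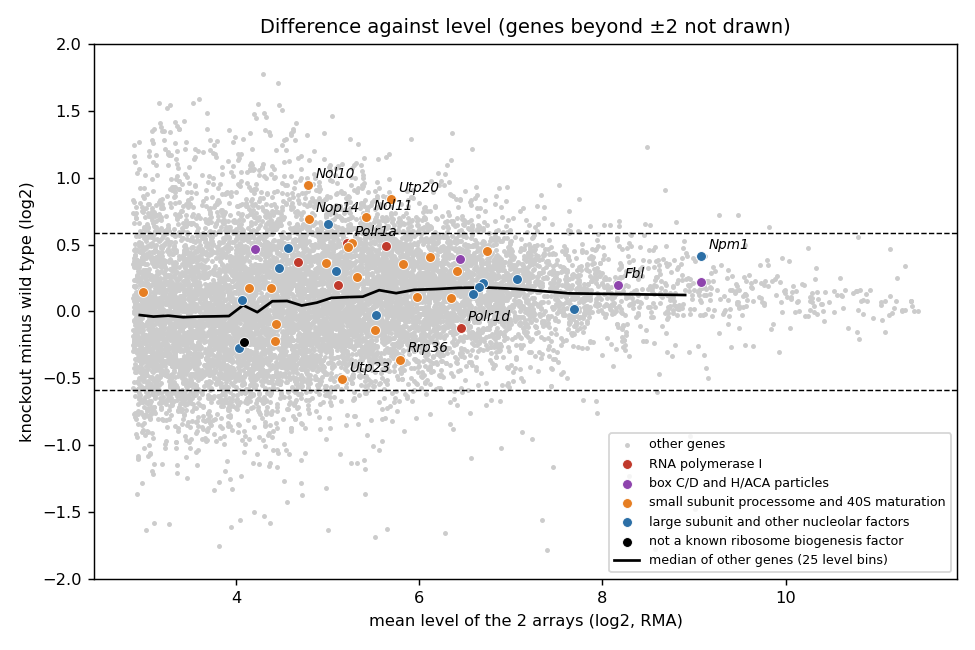
Difference of the array labelled knockout minus wild type (log2) against the mean level of the 2 arrays (log2). Coloured points are the 45 members past the filter by role, grey points are other genes, the solid line is their median in 25 level bins, and dashed lines mark 1.5-fold. Genes beyond 2 log2 units are not drawn. The members lie mostly above the line but inside the cloud of other genes.

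Of the 5 RNA polymerase I subunits among the members 4 read higher. Polr1a, the largest and catalytic subunit, read 5.47 on the array labelled knockout and 4.96 on the wild-type array, 1.42-fold higher (0.51 log2, local spread 0.34). Polr1b, the second largest subunit, read 5.21 and 5.02 (0.20). Polr1c, which RNA polymerase III also uses, read 5.88 and 5.39 (0.49). Polr1e, which forms a dimer at the edge of the enzyme, read 4.86 on the array labelled knockout and 4.49 on the wild-type array, where it was under the background level, so it was at least 1.04-fold higher. Polr1d, the partner of Polr1c in both enzymes, read 6.39 and 6.51 and was the 1 of these 5 below 0 (-0.12). Each of Polr1a, Polr1b, Polr1c and Polr1e was above the median of its neighbours in level, and none reached 1.5-fold.

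Of 17 listed names of RNA polymerase I transcription genes outside the members, some of them synonyms, 13 were found as genes on the array. These include further subunits and initiation and termination factors, and 11 of them passed the filter. The 11 had a median of -0.08, and 4 were above 0. None was at least 1.5-fold higher and 3 (27.3%) were at least 1.5-fold lower as measured, against 5.16% of all genes. The 3 were Taf1c and Taf1b, which belong to the promoter selectivity factor, and the termination factor Ttf1. Taf1b read 4.40 on the array labelled knockout and 5.02 on the wild-type array, and Ttf1 4.36 and 4.98. Both were under background on the array labelled knockout, so they were at least 1.16-fold and at least 1.13-fold lower. Taf1c (3.84 and 4.48) was near background on both arrays. The 4 above 0 were Nolc1 (0.58, near background), the initiation factor Rrn3 (0.42), Baz2a (0.30) and Ubtf (0.24), which opens the ribosomal gene repeat for transcription. Tcof1 was at -0.14. The remaining polymerase I subunits Twistnb (-0.08), Znrd1 (-0.04) and Cd3eap (-0.24, near background) were below 0. The 5 subunits shared with RNA polymerases II and III had a median of 0.16, with no 1.5-fold difference. The highest were Polr2l (0.30, near background), Polr2e (0.26) and Polr2h (0.16, under background on the wild-type array), and Polr2k (-0.06) was the lowest.

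All 4 members of the small nucleolar particles were higher, by small amounts. Fbl, the methyltransferase of box C/D particles, read 8.26 on the array labelled knockout and 8.07 on the wild-type array (0.19, local spread 0.20). Nop58, another box C/D core protein, read 6.64 and 6.25 (0.39). Dkc1, the pseudouridine synthase of H/ACA particles, read 4.44 and 3.97 (0.47) but was near background on both arrays. Nop10, an H/ACA core protein, read 9.18 and 8.96 (0.22). The H/ACA core genes outside the members lay on opposite sides of 0, with Nhp2 at 0.30 and Gar1 at -0.35. Snu13, a box C/D core gene outside the members, was at -0.06 and above background on both arrays. In the wider list of particle partners 9 of 11 genes were above 0 (median 0.30), and 8 were above the median of their neighbours in level. Znhit6, an assembly factor near background on both arrays, was at 0.95, Nufip1 at 0.49 and Naf1 at 0.46. Past 1.5-fold higher was 1 of the 11 (9.09%), against 9.16% of all genes.

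The small subunit processome held 4 of the 5 members that were at least 1.5-fold higher, and also the lowest members. These 4 were 18.2% of the 22 members of this role, against 9.16% of all genes and 9.81% of genes of like level. Nol10 read 5.26 on the array labelled knockout and 4.32 on the wild-type array (0.94). The wild-type value was under background, so it was at least 1.37-fold higher, and 11 of its 500 neighbours were as high. Utp20, a large scaffold protein of the processome, read 6.11 and 5.27, 1.79-fold higher (0.84, local spread 0.34), and 6 of 500 neighbours were as high. Nol11 read 5.78 and 5.07, 1.63-fold higher (0.71, local spread 0.39). Nop14 read 5.14 and 4.45 (0.69) and was at least 1.26-fold higher. Utp3 read 5.52 and 5.004 (0.51).

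At the other end, Utp23, which is needed for early cleavages of the precursor in yeast, read 4.90 on the array labelled knockout and 5.41 on the wild-type array, 1.42-fold lower (-0.51, local spread 0.34), and 11 of 500 neighbours were as low. Rrp36, also an early cleavage factor in yeast, read 5.61 and 5.97, 1.28-fold lower (-0.36). Utp6 (4.32 and 4.54) and Rrp12 (4.39 and 4.49), an export factor of the small subunit, were near background on both arrays. Nol7 read 5.45 and 5.59 (-0.14). Of the 22 members of this role 17 were above 0, with a median of 0.28 (interval 0.10 to 0.48). Above the median of their neighbours in level were 15 of the 22. The other 12 above 0 besides the 5 named ranged from 0.10 (Imp3 and Rrp9) to 0.48 (Utp11).

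Genes of the same assembly outside the members read the same way. Of 34 listed names, which include an old name of the member Utp4, 33 were found as other genes. All 33 passed the filter, with a median of 0.35 (interval 0.21 to 0.47). Of the 33, 29 were above 0 and 26 were above the median of their neighbours in level. At least 1.5-fold higher were 7 of the 33 (21.2%), against 9.16% of all genes and 9.96% of genes of like level, and 0 were 1.5-fold lower. Of these 7, only Noc4l, Wdr36 and Wdr46 were above background on both arrays. Pno1 and Fcf1 were under it on the wild-type array, and Pwp2 and Wdr3 were near background on both. Pno1, a late factor of the small subunit, read 5.63 on the array labelled knockout and 4.29 on the wild-type array (1.34), which was at least 1.77-fold higher. Noc4l read 6.03 and 5.06 (0.97) and Wdr36 6.36 and 5.51 (0.85), both above background. Fcf1, the endonuclease related to Utp23, read 4.96 and 4.14 (0.81) and was at least 1.11-fold higher.

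Within named subcomplexes, chosen after their values were seen, members and their partners can be set side by side. In UTP-A, which binds the precursor first, all 6 genes were above 0, against 58.2% of all genes past the filter. They were Nol11, Heatr1, Utp4, Utp15, Wdr43 and Wdr75, with a median of 0.40 and a range of 0.10 to 0.71. Wdr75 was near background on both arrays, and Utp15 was under it on the wild-type array. In UTP-B 5 of 6 were above 0, with a median of 0.57, from Wdr36 (0.85) to Utp6 (-0.22). Of these, Utp6, Pwp2 and Wdr3 were near background on both arrays, and Tbl3 was under it on the wild-type array. The complex of Mphosph10 with Imp3 and Imp4, which positions the U3 small nucleolar RNA, ranged from 0.10 (Imp3) to 0.40 (Imp4). Nop14 (0.69) and its partner Noc4l (0.97) were both higher, while Emg1, a methyltransferase that acts beside them, was at 0.05.

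Large subunit and other nucleolar factors differed less. The 13 members had a median of 0.21 (interval 0.02 to 0.41). Of the 13, 11 were above 0 and 8 were above the median of their neighbours in level. Past 1.5-fold higher was 1 (7.69%), against 9.16% of all genes. That gene, Nol12, an RNA-binding factor, read 5.33 on the array labelled knockout and 4.67 on the wild-type array (0.65) and was at least 1.43-fold higher. Npm1, nucleophosmin, the abundant chaperone of the outer nucleolus, read 9.29 and 8.87, 1.33-fold higher (0.41, local spread 0.18), and 45 of 500 neighbours were as high. Processed copies of Npm1 exist in the mouse genome, so its probes may also read those. Ncl, nucleolin, read 7.19 and 6.95 (0.24, local spread 0.27). Bop1 read 5.24 and 4.94 (0.30). Rrp1b (3.89 and 4.16) was lower near background, and its relative Rrp1 was at 0.13. Nop53 (0.02) and Nol9 (-0.03), a kinase that acts on the large subunit precursor, differed little between the arrays. Nol4l, of no known role in ribosome assembly, read 3.97 and 4.20, near background on both arrays.

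The partners of Bop1 in the PeBoW complex, which is needed for processing of the large subunit RNA, differed more than Bop1, with Wdr12 at 0.69 and Pes1 at 0.68, 1.61-fold and 1.60-fold higher. Among 43 other genes of large subunit assembly and export 35 (81.4%) were above 0, against 58.2% of all genes, with a median of 0.27. Above the median of their neighbours in level were 31 of the 43. At least 1.5-fold higher were 6 (13.95%), against 9.16% of all genes and 8.94% of genes of like level, and 0 were 1.5-fold lower. The highest were Lyar (0.80), Brix1 (0.77) and Wdr12. The 14 RNA exosome genes, which trim the precursor, had a median of 0.21, with 12 above 0 and 8 above the median of their neighbours in level. Exosc7, under background on the wild-type array, was at 0.59. C1d (0.41) and Exosc2 (0.40), both near background, followed. Over the 6 lists of other biogenesis genes together, 117 passed the filter and had a median of 0.26 (interval 0.21 to 0.30). Of these, 93 (79.5%) were above 0, and 80 were above the median of their neighbours in level. At least 1.5-fold higher were 15 (12.8%), against 9.23% of genes of like level, and 3 (2.56%) were 1.5-fold lower, against 3.69%.

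**Figure D3:**
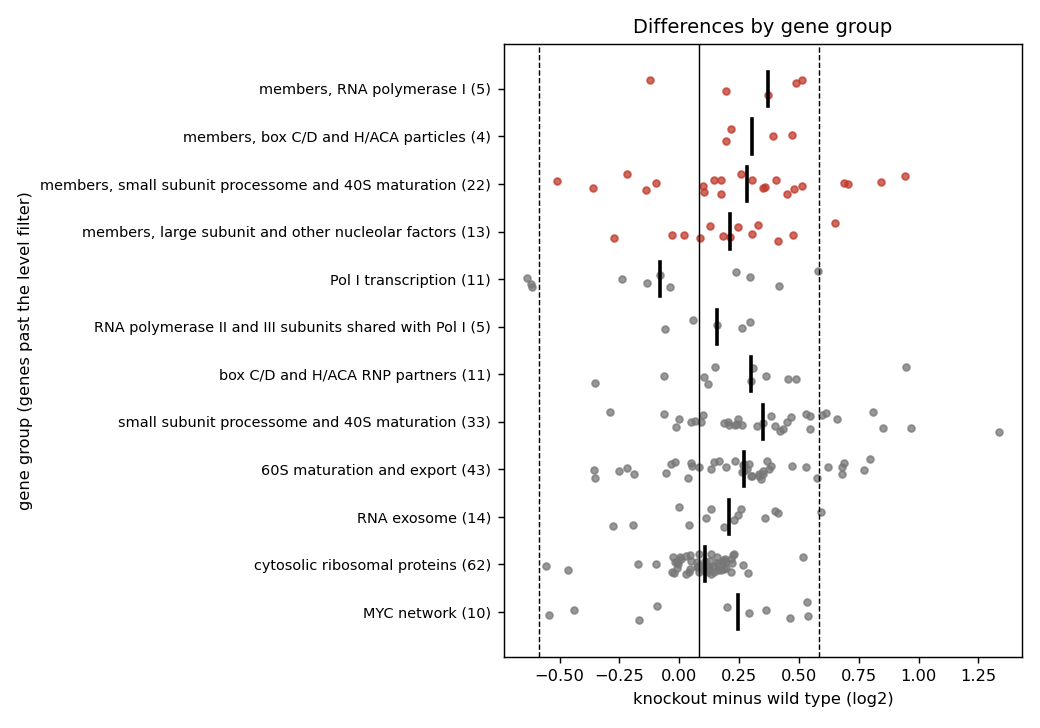
Difference of the array labelled knockout minus wild type (log2) for each gene past the level filter, in the 4 member roles (coloured) and in 8 lists of other genes (grey), with the number of genes in brackets. Thick bars are medians, the thin line is the median of all genes (0.08) and dashed lines mark 1.5-fold. Medians of the assembly groups lie right of the thin line, and that of the RNA polymerase I transcription list lies left of it.

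Ribosomal protein genes and the gene of the known activator MYC were read on the same arrays. The 62 cytosolic ribosomal protein genes past the filter had a median of 0.11, with none past 1.5-fold. Of these genes 51 (82.3%) were above 0, against 58.2% of all genes, but 22 were above the median of their neighbours in level. They lie at high levels (median 9.51), where the local spread is 0.17. Their largest differences were Rps4l (-0.56, near background), Rps27l (0.52) and Rpl10l (-0.46). These are like-named relatives of ribosomal protein genes that the name pattern of the list took in. The next largest was Rplp0 (0.29). Myc read 8.78 on the array labelled knockout and 8.32 on the wild-type array, 1.38-fold higher (0.46, local spread 0.19), and 37 of 500 neighbours were as high. In the wider MYC network 6 of 10 genes were above 0, with Mnt (-0.55, under background on the array labelled knockout), Mxi1 (0.54) and Mlx (0.54) furthest from 0 and none past 1.5-fold. All 10 proliferation markers were above 0 as well, with a median of 0.21, close to their neighbours in level (median difference from them 0.03). Bub1 (0.64, near background), Mcm4 (0.46) and Cdk1 (0.40) were the highest. The part of proliferation or of MYC in the members' differences was not tested.

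The members' differences showed little order by level. Across the 45 genes the difference and the mean level had a Spearman rho of 0.07 and a Pearson r of 0.05, as a description over genes that share the same 2 arrays. The scatter did depend on level. The 14 members with a mean of 6 or more ranged from -0.12 to 0.45 with an SD of 0.16 over genes, and 13 of them were above 0. Their median was 0.21, against 0.15 for the 2729 genes at those levels. The 16 members under 5 had a median of 0.25 and an SD of 0.35, and the genes at those levels had a median of 0.00. These 16 were the 10 members near background on both arrays and the 6 under background on the wild-type array only.

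The members lie on 18 chromosomes, 2 of them on X. Dkc1 and Utp14a, the X-linked members, were at 0.47 and 0.17, both near background. The Y-linked genes Eif2s3y (5.18 on the array labelled knockout and 3.40 on the wild-type array), Uty (4.05 and 2.51) and Kdm5d (3.22 and 1.62) read higher on the array labelled knockout. Eif2s3y was under background on the wild-type array, so it was at least 1.30-fold higher. Uty and Kdm5d were near background on both arrays, and Kdm5d was under the level filter. The part of a difference in the sex of the mice was not tested.

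Promoters of the members held ETS cores more often than those of other genes on the array. At least 1 match on either strand was found in 21 of 36 members (58.3%), against 34.1% of the 8832 other genes past the filter with a promoter entry and 16.9% of all 32851 promoters. A gene counted if any of its promoters matched. The share of all promoters counts each promoter singly, also those of genes not past the filter, so it is not a like measure. The E-box was found in 8 of 36 (22.2%), against 11.5% of those genes and 7.15% of all promoters. Both were found in 6 members (16.7%), namely Utp20, Nol11, Utp4, Imp4, Utp18 and Nop2, against 4.31% of the other genes. These 6 ranged from 0.18 to 0.84. Some promoters of a gene overlap, and counting each genomic position once left 35 ETS matches, of which 28 began within 100 bases before a gene start or after it. The string GCCATC, 1 form of the YY1 core, was found in 1 of 36 (2.78%, against 17.5% of the other genes). Other forms were not searched, such as GCCATG, whose complement CATGGC stands in the Utp20 promoter above. These shares are therefore of this string and not of YY1 sites. TATAAA was found in 4 of 36 (11.1%, against 9.25%) and CCAAT in 13 (36.1%, against 42.6%). No match of one motif overlapped a match of another. Median GC content was 57.5% in the members and 60.7% in the other genes.

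The differences of the members overlapped widely between promoters with and without a match. The 21 with an ETS core had a median of 0.33 and the 15 without of 0.21, while among the other genes the medians were 0.14 and 0.05. The 8 with an E-box had a median of 0.38 and the 28 without of 0.21, against 0.12 and 0.08 among the other genes. Rrp36, with 4 ETS cores in the promoter shown above, was the lowest of these 36 genes. Nop14, at 0.69, had no match to any of the 5 motifs. A match is a run of letters and not a measured binding site.

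**Figure D4:**
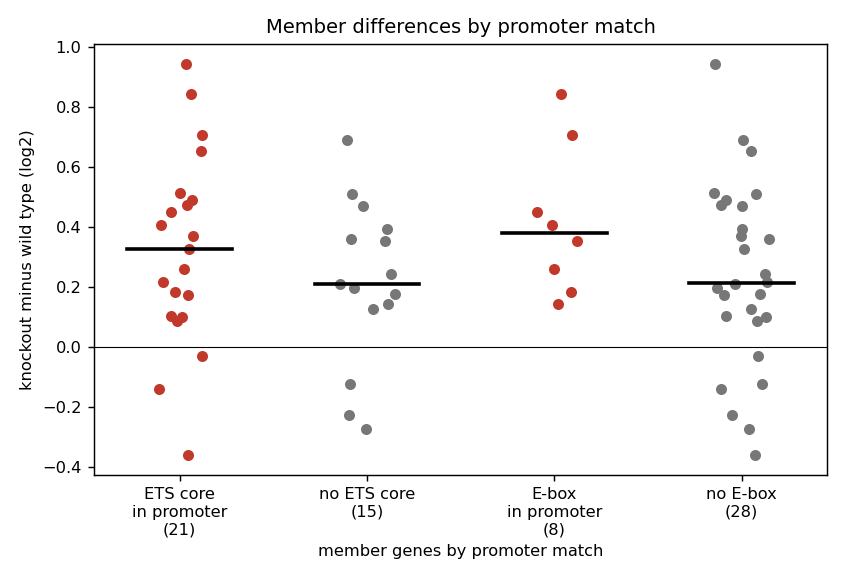
Difference of the array labelled knockout minus wild type (log2) of the 36 members with a promoter entry, with and without an ETS core and with and without an E-box. Points are genes, bars are medians and brackets give the number of genes. The medians with a match (0.33 and 0.38) lie above those without (0.21 each), and the points overlap.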

How the data were processed

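Total RNA of sorted progenitors was hybridised to 1 Affymetrix mouse array per genotype. The deposited values are log2 expression per probe set, made by the authors with Affymetrix Power Tools and RMA, per the submitters' processing notes. Neither versions nor a genome build were found in the sources used here. RMA corrects background, applies quantile normalization and summarises probes, so differences are relative to the other genes of an array.

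Of 29129 probe sets, 19572 carry 1 gene symbol of the platform annotation, giving 19505 genes. The design text names the Affymetrix Mouse Gene2.0 protocol, whereas the probe set names match GEO's annotation of another Affymetrix mouse design, on which every gene name here rests. Each gene was taken as its probe set of highest mean. The 47 members all matched the reference gene table (GRCm38.p6), used for names, chromosomes and promoters. Genes of like level were the 500 non-member genes nearest in mean. Intervals of medians are order-statistic binomial intervals (95%). A fold with 1 array under the background level is a lower limit against 4.80.

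Members named with both arrays' values are the 8 highest and 8 lowest differences past the filter, Fbl, Ncl, Npm1, Dkc1, Bop1 and the Polr1 genes. In each other pathway list the 3 largest differences and any of 2-fold, up to 6, are named, many with the difference only. Further genes are examples chosen after their values were seen, and so are the subcomplexes and motifs. The members and lists were chosen with earlier results of these data known. The number of arrays limits the precision. Scripts were tested on simulated data. Python 3.11.15, numpy 2.4.6, pandas 2.3.3, scipy 1.17.1, statsmodels 0.14.6 and matplotlib 3.10.9 were used. List genes without an entry in the annotation were not analysed here.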

Additional observations from a re-analysis of the deposited data

How the results depend on the processing

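The median difference of the members stayed above 0 and above the median of all genes under every alternative run. It was 0.24 with no level filter, with the filter at background on both arrays and with the mean of probe sets, 0.26 with the filter at the 75th percentile (4.84), 0.25 without Nol3, Nol4 and Nol4l, and 0.19 with values raised to 4.80. It was 0.15 after loess (span 0.3), 0.16 after quantile normalization and 0.16 after centring, which remove a shift of all genes (0.08 at the median). The 5 members past 1.5-fold became 3 with the filter at the 75th percentile, 2 with the filter at background on both arrays, 2 with raised values and 0 at 2-fold, since each of these removes or shrinks low values or raises the threshold. The count above genes of like level (31) was 19 of the 29 members left by the background filter and 25 with raised values. It was 21 of 31 at the 75th percentile, and 31 or 32 in the others, the window of 200 genes included. Of 40 alternative values of the 5 genes past 1.5-fold, 33 stayed past it, 7 did not and 0 changed sign. The 7 were Nol10 (0.46), Nop14 (0.33) and Nol12 (0.52) with raised values, Nol11 (0.58) and Nol12 (0.56) after loess, and Nol12 (0.57) after quantile normalization and after centring. No paired analysis was possible because each genotype has 1 array, and for the same reason no array could be left out.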
